A study of Mus musculus with 9 samples.

Results

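The genes described here are 5 repressors of the epithelial state (Zeb1, Zeb2, Snai1, Snai2 and Twist1), the epithelial splicing regulator Esrp2 and the mesenchymal filament gene Vim. They were followed through every Affymetrix probe set, a group of short probes reporting 1 signal, that names one of these 7 genes alone. This gave 11 probe sets for 7 of the 12393 genes with a probe set of their own. RNA came from MLP29 cells, a mouse hepatic progenitor line, on 9 arrays, 3 for each of 3 conditions. One condition received for 24 h a function-blocking antibody to α5β1 integrin, a major receptor for fibronectin, at 10 µg/ml. Another received HGF/SF1, hepatocyte growth factor or scatter factor, the ligand of the Met receptor, at 20 ng/ml for the same time, and the last was left untreated. All cultures had first been held in 0.1% serum for at least 16 h. By the sample titles every condition was run once on each of 3 days, which the study describes as independent experiments, here called experiments 1, 2 and 3. No array of a control antibody was used, so an effect of adding an antibody cannot be told apart from blockade of the integrin.

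Epithelial-mesenchymal transition (EMT) is the loss of cell junctions and of epithelial gene expression by which cells of an epithelial sheet separate and move. Snail factors (Snai1, Snai2) and Zeb factors bind E-box sequences in promoters such as that of E-cadherin and recruit corepressors, and Twist1 is a helix-loop-helix factor that works beside them. Zeb factors are also known to repress Esrp genes, whose RNA-binding proteins keep the epithelial splice forms of transcripts such as Fgfr2, Cd44 and Enah. Vimentin, which Vim encodes, is the intermediate filament protein of mesenchymal cells and of many cultured epithelial lines.

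The deposited values are log2 signals, so a difference of 1 is a doubling of signal. Differences were tested with limma over all 22626 probe sets, and a probe set was called at an unadjusted p under 0.05. The p adjusted by Benjamini-Hochberg over all probe sets is given beside it. Each p measures the spread between 3 cultures per condition, 1 from each day. Differences between days are part of that spread unless the experiment is entered as a block. Array medians lay between 5.92 and 6.1. Of 10 measured progenitor and biliary markers, 6 lay above the median brightness of all probe sets (Krt8, Krt18, Krt19, Krt7, Met and Cd24a). Sox9, Prom1, Epcam and Afp lay below it, so the markers only partly reflected the progenitor label of the line. Of 12 fibroblast and stellate markers 0 lay above that median, and their summed linear signal was 225 to 231 in antibody cells, 215 to 244 in HGF/SF1 cells and 209 to 249 in untreated cells. Hepatocyte markers likewise had 0 of 8 above it. Of 9 leukocyte markers, Cd14 and Cd68 lay above it by their mean over all arrays. For Cd68 this came from the antibody arrays, with a mean of 8.09. Its means in untreated cells (5.50) and in HGF/SF1 cells lay below that median of 6.02. Cd68, a lysosomal glycoprotein, was higher with antibody by 2.60 (SE 0.65, higher in 3 of 3 experiments, limma adjusted p = 0.207), a call lost without experiment 2. Cd14 was lower by -0.54 (SE 0.39, limma adjusted p = 0.685), with 0.39, -0.85 and -1.16 in experiments 1 to 3. The other leukocyte markers differed by -0.01 to 0.19 and were not called. The part of these differences in the results below was not tested. In such bulk RNA, fewer cells of a type and less RNA per cell cannot be told apart.

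With antibody, Esrp2 fell and Zeb1 and Snai1 rose against untreated cells at the unadjusted threshold, while Zeb2, Snai2, Twist1 and Vim were not called. These were 3 of 11 probe sets, 27.3%, beside 11.8% of all probe sets called in that comparison (4.53% higher and 7.29% lower). None of the 3 passed adjustment over all probe sets, where 5 of 22626 did (0.0221%). The median change of the 11 probe sets was 0.18, against 0.00 over all. With HGF/SF1, 0 of 11 were called against untreated cells, beside 0.849% of all probe sets, and 0 probe sets in all passed adjustment (0%). With the experiment entered as a block, 4 of 11 were called with antibody against untreated cells, beside 18.2% of all, and 0 of 11 with HGF/SF1, beside 1.82% of all.

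**Figure D1:**
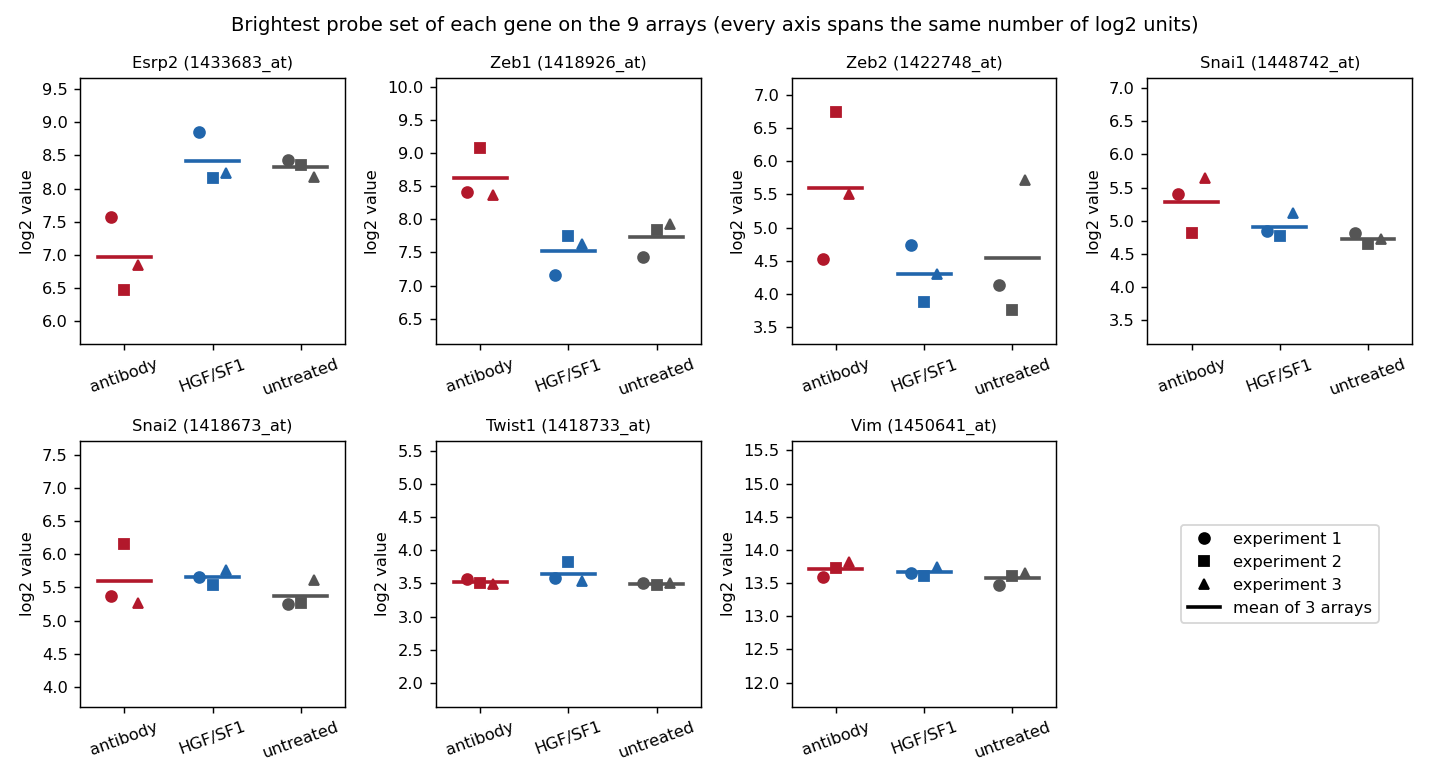
Log2 value (vertical axis, the same span in every panel) of the brightest probe set of each gene in antibody, HGF/SF1 and untreated cells. Symbols mark experiments 1 to 3 and lines the mean of 3 arrays; the antibody arrays of Esrp2 lie below, and those of Zeb1 above, all other arrays of the same gene.

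Esrp2, whose protein directs epithelial exon choice and which in mouse liver is known for the splicing program of mature hepatocytes, had values of 7.58, 6.47 and 6.85 in antibody cells on its brighter probe set, 1433683_at, in experiments 1, 2 and 3. It had 8.85, 8.17 and 8.23 in HGF/SF1 cells and 8.43, 8.36 and 8.17 in untreated cells. All 3 antibody arrays were below all 6 others, and HGF/SF1 and untreated arrays overlapped. The means were 6.97 ± 0.56, 8.41 ± 0.37 and 8.32 ± 0.13 in antibody, HGF/SF1 and untreated cells (SD, n = 3 each). Against untreated cells Esrp2 was lower with antibody by 2.55-fold, a log2 change of -1.35 (SE 0.28, 95% interval -2.00 to -0.70, limma adjusted p = 0.175), and it was lower in 3 of 3 experiments, by -0.85, -1.88 and -1.32. With the experiment as a block the SE of this change was 0.18 and the limma adjusted p 0.0642. Experiment 1 held the smallest of the 3 differences. Without the antibody array of experiment 1 the adjusted p was 0.0115, and without all of experiment 1 it was 0.0261, in a range from 0.0115 to 1 over all alternatives. Without experiment 1 the number of listed genes called with antibody was also at its highest, so a lower p there was not particular to Esrp2.

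Relative to HGF/SF1, antibody cells had 2.72-fold less Esrp2 signal, a log2 difference of -1.45 (SE 0.28, limma adjusted p = 0.125), with -1.27, -1.69 and -1.38 in experiments 1 to 3. With the experiment as a block, this limma adjusted p was 0.0417, in a range from 0.0101 to 0.887 over all alternatives. HGF/SF1 against untreated cells gave 0.09 (95% interval -0.56 to 0.75, limma adjusted p = 1). The change of Esrp2 was thus measured with antibody and not detected with HGF/SF1, and the difference between both stimuli was itself called.

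The other Esrp2 probe set, 1419977_s_at, was not called in any comparison. The ending s marks probes that can match more than 1 transcript, and its signal was above 29.5% to 45.9% of all probe sets on the same array, against 55.1% to 81.4% for 1433683_at, a measure of probe brightness and not of RNA amount. Its values were 4.74, 5.02 and 4.13 in antibody cells, 5.11, 5.16 and 4.47 in HGF/SF1 cells and 5.52, 4.90 and 4.32 in untreated cells. The groups overlapped. Antibody differed from untreated cells by -0.28 (95% interval -1.07 to 0.51, limma adjusted p = 0.842), lower in 2 of 3 experiments. It differed from HGF/SF1 by -0.28 (limma adjusted p = 0.826), lower in 3 of 3 experiments, by -0.37, -0.14 and -0.33. Esrp1, the other member of the family, was dim on every array, with 3.53 to 3.62 in antibody cells, 3.56 in HGF/SF1 cells and 3.43 to 3.63 in untreated cells, and its difference with antibody was 0.00 (SE 0.09, limma adjusted p = 0.992).

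Zeb1, a zinc finger homeobox repressor of E-cadherin and of Esrp genes, moved the other way. Probe set 1418926_at had 8.41, 9.08 and 8.37 in antibody cells, 7.17, 7.75 and 7.63 in HGF/SF1 cells and 7.43, 7.84 and 7.93 in untreated cells. Every antibody array was above all 6 others, and HGF/SF1 and untreated arrays overlapped. The means were 8.62 ± 0.40 with antibody, 7.52 ± 0.31 with HGF/SF1 and 7.73 ± 0.27 without treatment (SD, n = 3 each). Zeb1 was 1.85-fold higher with antibody than in untreated cells, a log2 change of 0.89 (SE 0.24, 95% interval 0.34 to 1.44, limma adjusted p = 0.221), and higher in 3 of 3 experiments, by 0.99, 1.24 and 0.44. With the experiment as a block the SE of this change was 0.16 and the limma adjusted p 0.0748.

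Against HGF/SF1 the Zeb1 difference was 1.10 (SE 0.24, limma adjusted p = 0.139), or 2.15-fold, with 1.24, 1.33 and 0.74 in the 3 experiments. With the experiment as a block the limma adjusted p was 0.0468, the lowest of a range up to 0.887 over all alternatives. With that block, Esrp2 and Zeb1 were the 2 of 11 probe sets that passed adjustment between antibody and HGF/SF1, beside 1.07% of all, and 3 of 11 were called, beside 19.8% of all. With HGF/SF1 against untreated cells Zeb1 gave -0.22 (95% interval -0.77 to 0.33, limma adjusted p = 1), with negative values in 3 of 3 experiments. Esrp2 and Zeb1 were the 2 of 11 probe sets whose antibody arrays did not overlap the untreated arrays, beside 14.2% of all probe sets without such overlap. They were also 2 of 11 without overlap between antibody and HGF/SF1, beside 13.8% of all, and the 2 of 11 called there, beside 13.2% of all (14.1% of genes by their brightest probe set).

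**Figure D2:**
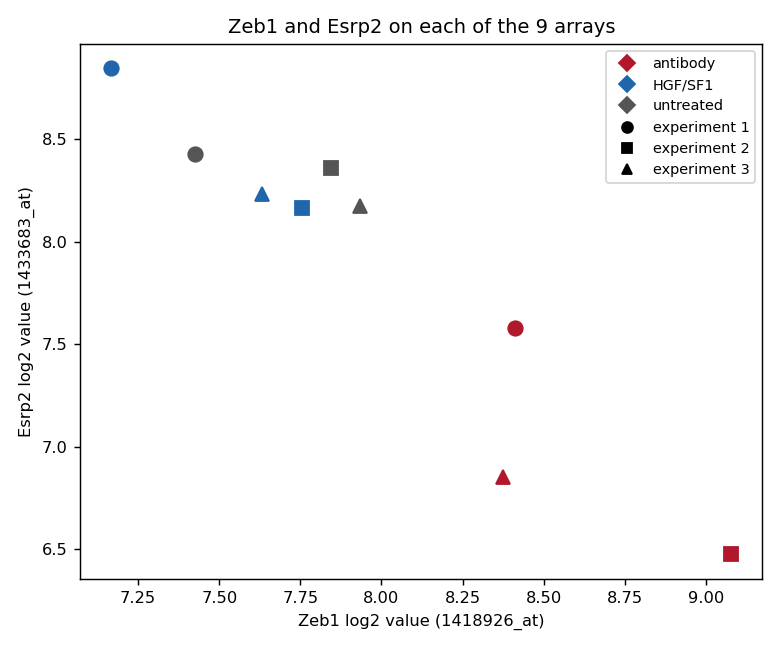
Log2 value of Zeb1 (1418926_at, horizontal axis) and of Esrp2 (1433683_at, vertical axis) on each of the 9 arrays, with colour for the condition and symbol for the experiment. The 3 antibody arrays stand apart at high Zeb1 (8.37 to 9.08) and low Esrp2 (6.47 to 7.58), and the HGF/SF1 and untreated arrays lie together.

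The arrays fall into these clusters, so no correlation between both genes is given. A further Zeb1 probe set, 1420243_at, was among the dimmest on the arrays, above 0.243% to 15.3% of all probe sets. It read 3.31, 3.11 and 3.13 with antibody, 3.32, 3.22 and 3.02 with HGF/SF1 and 3.23, 3.63 and 2.96 without treatment. No group stood apart there, and the difference of antibody from untreated cells was -0.09 (95% interval -0.48 to 0.30, limma adjusted p = 0.907).

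Zeb2, the close relative of Zeb1 that binds the same E-boxes, was spread widely within conditions, with an SD of 1.11 in antibody cells, 0.44 in HGF/SF1 cells and 1.04 in untreated cells (n = 3 each). Its single probe set had 4.52, 6.74 and 5.51 in antibody cells, 4.74, 3.87 and 4.30 in HGF/SF1 cells and 4.14, 3.76 and 5.71 in untreated cells. The antibody array of experiment 2 was the highest of the 9, while the untreated array of experiment 3 exceeded both other antibody arrays. The mean difference of antibody from untreated cells was 1.05 (SE 0.64, 95% interval -0.40 to 2.51, limma adjusted p = 0.595), made of 0.38, 2.98 and -0.20 in the 3 experiments. The probe set was called without the antibody array of experiment 1 (difference 1.59) and without the untreated array of experiment 3 (1.64), and without experiment 2 the difference was 0.089. Against HGF/SF1, antibody cells differed by 1.28 (SE 0.64, limma adjusted p = 0.451), which was called in 3 of 17 alternatives, without the antibody array of experiment 1 (1.82), without the untreated array of experiment 3 (1.28) and without all of experiment 1 (2.04).

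Snai1 encodes Snail, the zinc finger repressor that acts early in EMT and whose protein is short-lived. Its probe set had 5.41, 4.81 and 5.64 in antibody cells, 4.84, 4.78 and 5.12 in HGF/SF1 cells and 4.82, 4.65 and 4.73 in untreated cells. Antibody arrays of experiments 1 and 3 were above all untreated arrays, while that of experiment 2 lay level with the highest of them. The means were 5.29 ± 0.43, 4.91 ± 0.18 and 4.73 ± 0.09 in antibody, HGF/SF1 and untreated cells (SD, n = 3 each). Snai1 was 1.47-fold higher with antibody than in untreated cells, a log2 change of 0.56 (SE 0.20, 95% interval 0.09 to 1.02, limma adjusted p = 0.336), and higher in 3 of 3 experiments, by 0.59, 0.16 and 0.92. With the experiment as a block the SE of this change was 0.15 and the limma adjusted p 0.134.

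This call for Snai1 rested on single arrays. It was lost without the antibody array of experiment 1 (difference 0.50) or 3 (0.38), without the untreated array of experiment 2 (0.51) or 3 (0.55), and without all of experiment 1 (0.54) or 3 (0.38). The probe set was brighter than 37.4% to 47.4% of all probe sets on its array. HGF/SF1 against untreated cells gave 0.18 (95% interval -0.28 to 0.65, limma adjusted p = 1), and antibody against HGF/SF1 gave 0.38 (SE 0.20, limma adjusted p = 0.497), which was called in 3 of 17 alternatives, once the experiment was blocked (adjusted p = 0.239), without the antibody array of experiment 2 (0.61) and without all of experiment 2 (0.54).

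Promoters of 4 of the 7 genes (Snai1, Zeb2, Twist1 and Vim) were taken from RefSeq (GRCm38.p6) and searched on both strands, from 250 bases before to 50 bases after the start, for CACCTG, the E-box that Snail and Zeb factors bind, for CANNTG, any E-box, CACCTG included, and for TGANTCA, the AP-1 type site. The promoters of Snai1, a repressor called higher with antibody, and of Vim, the mesenchymal gene that was not called, are shown. Each is given for its 250 bases before the start, with CACCTG in capitals.
Snai1 promoter, chr2:167537945-167538194, plus strand: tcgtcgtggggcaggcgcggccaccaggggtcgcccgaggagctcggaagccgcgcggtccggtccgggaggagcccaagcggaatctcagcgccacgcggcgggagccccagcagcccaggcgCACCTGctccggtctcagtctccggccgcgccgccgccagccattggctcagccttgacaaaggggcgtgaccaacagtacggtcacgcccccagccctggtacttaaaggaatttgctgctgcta
Vim promoter, chr2:13574061-13574310, plus strand: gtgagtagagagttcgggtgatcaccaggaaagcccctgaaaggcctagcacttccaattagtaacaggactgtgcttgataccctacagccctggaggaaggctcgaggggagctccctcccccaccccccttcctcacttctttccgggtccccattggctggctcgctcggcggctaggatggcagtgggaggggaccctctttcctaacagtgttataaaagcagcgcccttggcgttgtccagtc
The Snai1 promoter held 1 CACCTG, starting at base -126 from the start site, and that of Vim held none of the 3 motifs. CACCTG was present in 20.2% of 32851 promoters of this length, CANNTG in 72.3% and TGANTCA in 7.81%. Twist1 held none of the motifs, and of 4 Zeb2 starts 1 held 2 TGANTCA matches, at -189 and -132. Of 25 epithelial genes listed as known targets of Snail and Zeb factors, 17 had a promoter in this collection. Of these, 13 held CACCTG, or 76.5%, against 22.6% of all 27025 genes with a promoter there. The list was drawn from known targets of factors that bind this site, so this excess is no independent result.

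Snai2 encodes Slug, the Snail relative common in cultured epithelial cells. It had 5.37, 6.16 and 5.27 in antibody cells, 5.66, 5.54 and 5.76 in HGF/SF1 cells and 5.25, 5.27 and 5.61 in untreated cells. The antibody array of experiment 2 was the highest of the 9, and the groups overlapped. Antibody differed from untreated cells by 0.22 (95% interval -0.30 to 0.75, limma adjusted p = 0.794) and HGF/SF1 from untreated cells by 0.28 (95% interval -0.25 to 0.80, limma adjusted p = 1). Without the antibody array of experiment 2 the difference of antibody from untreated cells was -0.056.

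Twist1 had 3.57, 3.50 and 3.50 in antibody cells, 3.58, 3.82 and 3.54 in HGF/SF1 cells and 3.50, 3.47 and 3.50 in untreated cells. Its signal was above 10.4% to 21.0% of all probe sets, and a change of a transcript this dim may not be detectable on these arrays. HGF/SF1 arrays were all above the untreated ones, by 0.15 on average (95% interval -0.07 to 0.38, limma adjusted p = 1), and it was the 1 of 11 probe sets without overlap there beside 3.69% of all. Antibody differed from untreated cells by 0.03 (95% interval -0.20 to 0.26, limma adjusted p = 0.944).

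Vim probe sets were among the brightest in all 3 conditions, above 99.0% to 99.9% of all probe sets over its 3 probe sets. On 1450641_at it had 13.59, 13.72 and 13.81 in antibody cells, 13.66, 13.60 and 13.75 in HGF/SF1 cells and 13.47, 13.61 and 13.66 in untreated cells. The conditions overlapped, and the spread over all 9 arrays was small. Antibody differed from untreated cells by 0.13 (95% interval -0.10 to 0.36, limma adjusted p = 0.708) on this probe set, by 0.18 (-0.06 to 0.42, adjusted p = 0.577) on 1438118_x_at and by 0.22 (-0.06 to 0.50, adjusted p = 0.562) on 1456292_a_at. All 3 were above untreated in 3 of 3 experiments, but they measure the same RNA. Of them 1456292_a_at was called once the experiment was blocked (limma adjusted p = 0.274) and without the antibody array of experiment 1 (adjusted p = 0.197). HGF/SF1 differed from untreated cells by 0.08 to 0.09 over the 3 probe sets, each with a limma adjusted p of 1.

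**Figure D3:**
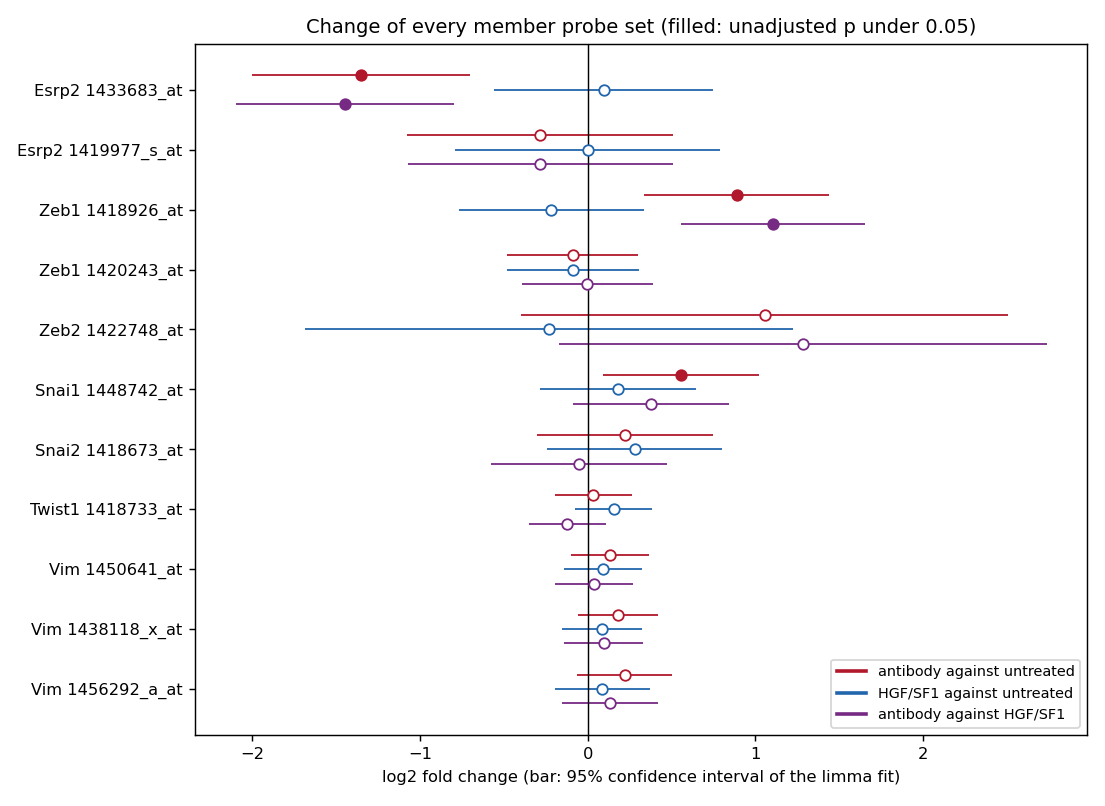
Log2 fold change (horizontal axis) with its 95% confidence interval from limma for all 11 probe sets in the 3 comparisons; filled points have an unadjusted p under 0.05. Esrp2 1433683_at (-1.35) and Zeb1 1418926_at (0.89) lie away from 0 with antibody on opposite sides, and the wide bars belong to Zeb2.

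The order of the conditions differed between genes. For Esrp2 1433683_at and Zeb1 1418926_at, HGF/SF1 and untreated cells were neighbours that did not differ beyond their spread, with antibody at the low end for Esrp2 and at the high end for Zeb1. For Snai1 and Vim the order of means was antibody, HGF/SF1, untreated, with no neighbouring pair called. For Zeb2 it was antibody, untreated, HGF/SF1, with no pair called. For Snai2 and Twist1 the highest mean was that of HGF/SF1, and again no pair was called.

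The surroundings of these genes were followed through 10 lists of 177 measured genes, each by its brightest probe set. With antibody, 25 of 177 (14.1%) were called against untreated cells, 13 higher and 12 lower, beside 12.6% of all 12393 genes (4.68% higher and 7.92% lower), so that the lists as a whole stood close to the background. Of the 25, 0 passed the limma adjustment over all probe sets. With the experiment blocked 35 of 177 were called, beside 968 higher and 1320 lower of all 12393 genes. With HGF/SF1, 1 of 177 was called, beside 0.839% of genes. This was Hgf, lower by -0.28 (SE 0.09) at a dim mean of 3.71, against 3.99 in untreated cells. Of the 25 genes, 3 kept their call when each array or experiment was left out in turn (Col5a1, Plec and Hif1a).

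Among 16 other EMT transcription factors, 1 was higher and 1 lower with antibody, at a median of -0.03, beside a median of -0.00 over all genes. Tcf12, an E-protein partner of Twist factors, had 9.23, 10.17 and 9.78 in antibody cells and 8.69, 9.12 and 9.25 in untreated cells, higher by 0.71 (SE 0.26, limma adjusted p = 0.337). Id2, an inhibitor of E-proteins, had 7.02, 6.74 and 6.78 in antibody cells and 7.92, 8.76 and 7.07 in untreated cells, lower by -1.07 (SE 0.42, adjusted p = 0.369), although 1 of its 3 probe sets gave a positive difference. With the experiment blocked, 1 of the 16 was higher and 3 were lower, beside 968 higher and 1320 lower of all 12393 genes. The corepressors of Snail and Zeb factors had 0 of 15 called, at a median of 0.07. With the experiment blocked, 3 of the 15 were higher and 0 lower, beside 968 higher and 1320 lower of all 12393 genes. Each of the 3 was higher in 3 of 3 experiments. These were the demethylase Kdm1a (0.48, limma adjusted p = 0.0972 with the block), the deacetylase Hdac2 (0.44, 0.130) and the methyltransferase Ezh2 (0.54, 0.258). Of 12 regulators of Snail protein stability, the casein kinase Csnk1e was higher by 0.85 (SE 0.24, limma adjusted p = 0.238). The phosphatase Ctdsp1 (-0.81, SE 0.23, limma adjusted p = 0.229) and the F-box protein Fbxl14 (-0.62, SE 0.20, limma adjusted p = 0.288), a ubiquitin ligase subunit for Snail, were lower. In experiment 1 Ctdsp1 differed by -0.23 and Fbxl14 by -0.02. With an array or experiment left out, Csnk1e kept its call in 11 of 12 cases, Ctdsp1 in 10 and Fbxl14 in 8.

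Epithelial transcription factors were called in both directions, 3 higher and 2 lower of 13, at a median of -0.02. Grhl1, a grainyhead factor of epithelial junction genes, had 4.31, 4.02 and 4.44 in antibody cells and 4.80, 5.05 and 5.33 in untreated cells, lower by -0.80 (SE 0.20, limma adjusted p = 0.207). Foxa1, a pioneer factor of liver and other endoderm, was lower by -0.83 (SE 0.25, adjusted p = 0.257), and its relative Foxa3 was higher by 0.39 (SE 0.13). Elf3, an ETS factor of epithelia, had 7.49, 8.87 and 9.15 in antibody cells and 6.72, 7.50 and 7.68 in untreated cells, higher by 1.20 (SE 0.50, adjusted p = 0.400), and above untreated in each experiment.

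Genes that Snail and Zeb factors are known to repress were, with 1 exception, not called with antibody. Of 25 such epithelial genes, 0 were higher and 1 lower with antibody, at a median of -0.03. Several were dim in untreated cells, such as Marveld2 (3.21), Cldn7 (3.47) and Cldn1 (3.57). A fall of transcripts this dim may not be detectable on these arrays. Others were bright in untreated cells and not called either, such as Tjp1 (11.26, a difference with antibody of 0.22) and Cdh1 (10.82). The one called was Tjp3, a tight junction scaffold, with 7.87, 6.51 and 7.41 in antibody cells and 8.10, 8.26 and 7.68 in untreated cells (-0.75, SE 0.31, limma adjusted p = 0.400), and its array in experiment 2 carried most of it. Cdh1, E-cadherin, named here as the best known target, had 10.44, 10.85 and 10.65 in antibody cells, 10.42, 11.19 and 10.71 in HGF/SF1 cells and 10.66, 11.15 and 10.63 in untreated cells. Its groups overlapped, and antibody differed from untreated cells by -0.17 (SE 0.22, limma adjusted p = 0.859).

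Of 26 mesenchymal marker genes, 1 was higher and 0 lower with antibody, at a median of 0.04. Col5a1, a fibrillar collagen chain, had 6.99, 6.13 and 6.04 in antibody cells, 5.02, 5.32 and 4.90 in HGF/SF1 cells and 5.18, 5.22 and 5.43 in untreated cells, with every antibody array above the 6 others. It was higher by 1.11 (SE 0.25, limma adjusted p = 0.188), and all 3 of its probe sets were above untreated. Of 20 genes of intermediate filaments and partners of vimentin, 1 was higher and 1 lower. Plec, the linker of filaments to adhesion sites, had 11.83, 11.67 and 11.44 in antibody cells, 12.08, 12.30 and 12.13 in HGF/SF1 cells and 12.21, 12.39 and 12.19 in untreated cells, lower by -0.62 (SE 0.13, adjusted p = 0.172). Krt23, a keratin, was higher by 0.79 (SE 0.32), with a negative difference of -0.33 in experiment 1.

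**Figure D4:**
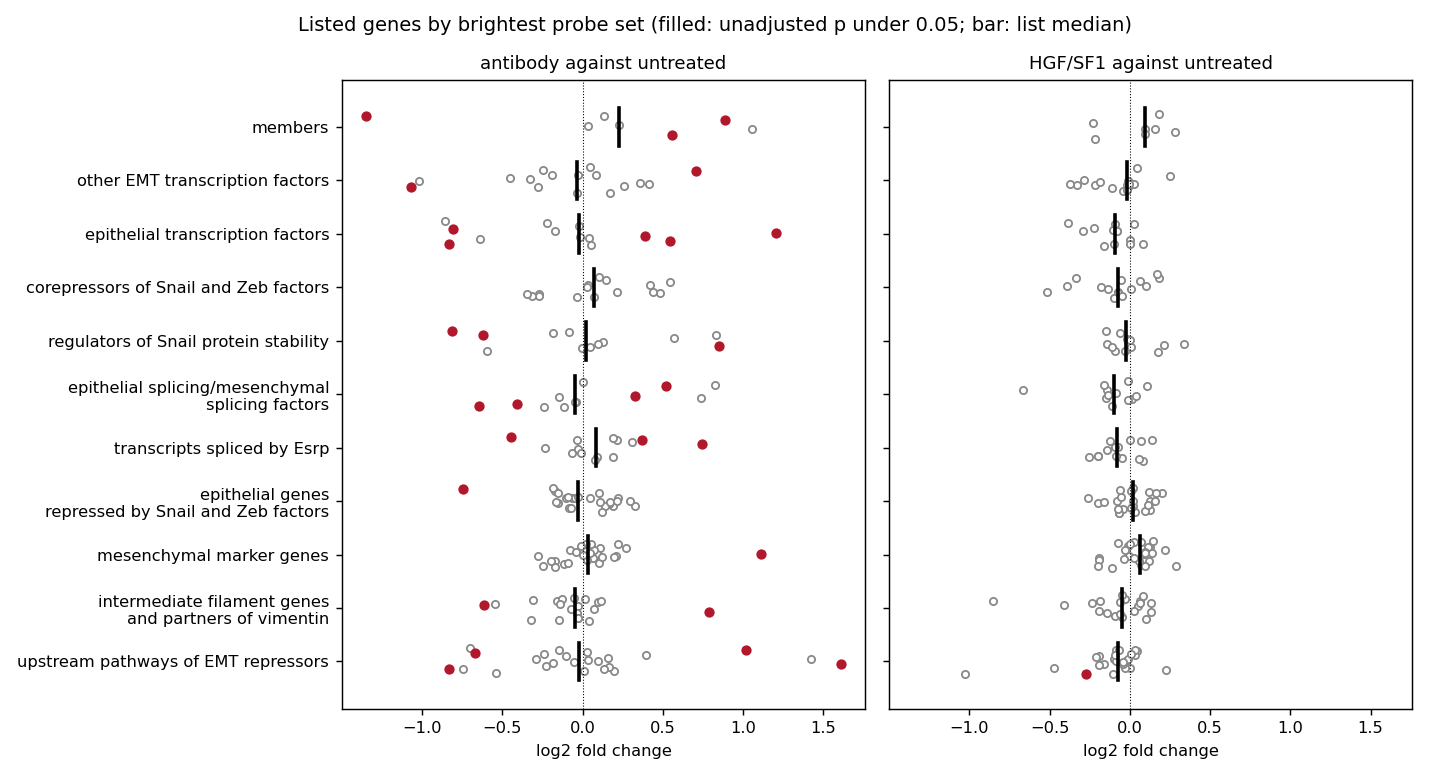
Log2 fold change (horizontal axis) against untreated cells of the listed genes, by brightest probe set, for antibody and for HGF/SF1, with filled points at an unadjusted p under 0.05 and bars at the list median. With antibody 25 of the 177 genes outside the first row were called and with HGF/SF1 1, and the medians of the lists stay near 0.

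Splicing genes around Esrp2 were called in both directions. Of 12 factors of epithelial and mesenchymal splicing, Qk, a promoter of mesenchymal splicing, was higher by 0.52 (SE 0.22) and Tial1 by 0.33 (SE 0.13). Srsf1, an SR protein, was lower by -0.65 (SE 0.25) and Hnrnpm by -0.41 (SE 0.18), which lost its call with the experiment blocked. Of Qk, 2 of 4 probe sets were above untreated cells, so its probe sets disagreed. Among 14 transcripts known to be spliced by Esrp proteins, 2 were higher and 1 lower. Enah, an actin regulator with an epithelial exon, averaged 9.55 in antibody cells and 8.80 in untreated cells, higher by 0.75 (SE 0.27, limma adjusted p = 0.336) and above untreated on all 4 of its probe sets. Magi1, a junction scaffold, was higher by 0.37 (SE 0.15), on 2 of 3 probe sets. Nf2, the tumour suppressor merlin, was lower by -0.44 (SE 0.17, limma adjusted p = 0.363), on all 4 of its probe sets. These probe sets were not used to separate splice forms.

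Of 24 genes of pathways upstream of these repressors, 2 were higher and 2 lower with antibody. Tgfb2, a ligand that induces Zeb and Snail genes in many epithelia, was higher by 1.61 (SE 0.43, limma adjusted p = 0.217), by 1.33, 2.58 and 0.93 in the 3 experiments. Hif1a, the oxygen-regulated factor, was higher by 1.02 (SE 0.25, adjusted p = 0.199). The receptor Tgfbr1 was lower by -0.67 (SE 0.20) and the Notch target Hes1 by -0.83 (SE 0.32). With an array or experiment left out, Tgfb2 and Tgfbr1 kept their calls in 11 of 12 cases, with changes of 1.13 to 2.02 and -0.81 to -0.56, and lost them without experiment 2. Hes1 kept its call in 7 of 12, with changes of -1.03 to -0.52, and lost it without the antibody array of experiment 1 or 2, the untreated array of experiment 2, or all of experiment 2 or 3. With the experiment blocked, 4 of the 24 were higher and 3 lower, beside 968 higher and 1320 lower of all 12393 genes.

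The genes most like each of the 7 over the 9 arrays were ranked by Pearson r among genes brighter than the median, as a description over points that share the 3 conditions and experiments. Esrp2 was followed most closely by Ufm1 (r = 0.994), 2410004B18Rik (0.991) and Ppil2 (0.990), and Zeb1 by Phlpp1 (0.983), Srpk1 (0.983) and Cyrib (0.977). For Zeb2 they were Kdm5b (0.960), Rab21 (0.956) and Jmjd1c (0.945), and for Snai1 Pcmt1 (0.937), Phlda1 (0.901) and 1700037H04Rik (0.900). For Snai2 they were Lars (0.928), Nav2 (0.865) and Ahctf1 (0.848), for Twist1 Kctd1 (0.885), Zfp931 (0.776) and Psmc4 (0.775), and for Vim Serinc1 (0.960), Nfil3 (0.956) and Sart1 (0.947).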

How the data were processed

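RNA of 9 cultures of MLP29 cells was hybridised to 1-colour Affymetrix mouse arrays. The authors corrected the background with rma in affylmGUI, and the deposited values are log2 signals, 1 per probe set; normalization between arrays and the summary per probe set are not given in the sources used here, and the scanner files were not used. Of 22690 probe sets, 64 controls were left out. The platform annotation named 1 gene for 20380 of the rest, several for 691 and none for 1555, and 0 named a member beside other genes. All 9 arrays entered 1 limma fit (limma 3.58.1, R 4.3.3; a mean per condition, empirical Bayes, two-sided, 6 residual degrees of freedom), tested on simulated data. The days in the titles pair the arrays: after removal of condition means, the 9 pairs of arrays within an experiment had correlations between 0.0958 and 0.591 and the 18 pairs across experiments between -0.484 and 0.0308, and the experiment as a block is an alternative. Genes were read by the probe set with the highest mean. Named are all members, the 3 genes most like each, and from every list at most 4 genes, those of lowest p with antibody, and at most 2 with HGF/SF1. Cdh1, Esrp1, Hdac2, Marveld2 and Cldn1 were added outside this rule, after values were seen. Hdac2 was named for its call with the experiment blocked, and Marveld2 and Cldn1 for their dim signal. Cell type markers were named also for their level. The members and lists were chosen with earlier results of these data known. Alternatives were another normalization, brightness filter, variance prior, sample set, and each array or experiment left out.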

Additional observations from a re-analysis of the deposited data

Results flagged for a closer look

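Esrp2 and Zeb1 were singled out because the antibody and HGF/SF1 effects differed in a direct test between both stimuli. Esrp2 1433683_at was lower with antibody than with HGF/SF1 by -1.45 on the log2 scale (limma adjusted p = 0.125), lower in 3 of 3 experiments. Zeb1 1418926_at was higher with antibody than with HGF/SF1 by 1.10 (limma adjusted p = 0.139), higher in 3 of 3 experiments. With n = 3 arrays per condition no group was tested for outlying arrays.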

How the results depend on the processing

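The number of called member probe sets stayed between 2 and 4 for antibody against untreated cells, at 0 for HGF/SF1, and at 2 or 3 for antibody against HGF/SF1, under every alternative run. Esrp2 1433683_at and Zeb1 1418926_at were called in 18 of 18 alternatives in both antibody comparisons, with changes against untreated cells of -1.66 to -1.09 and 0.66 to 1.11; Snai1 was called in 11 of 17. Paired by experiment (replicate block), 4 member probe sets were called for antibody against untreated cells, and no call of a member changed beyond those given in the report. Listed genes, markers included, moved more: with the replicate block 37 were called for antibody against untreated cells (26 without it), 38 for antibody against HGF/SF1 (25) and 4 for HGF/SF1 against untreated cells (1), while the share of all probe sets called was 18.2%, 19.8% and 1.82% (11.8%, 13.2% and 0.849% without it). With an array or experiment left out, an alternative chosen after seeing the data, their number ran from 5 to 42 for antibody against untreated cells (26 with all), from 9 to 41 for antibody against HGF/SF1 and from 0 to 4 for HGF/SF1. The lowest counts for antibody, 5 and 9, came without experiment 2, and the highest, 42 and 41, without experiment 1.

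Reversed directions concerned probe sets that were not called. With arrays centred on their medians, Esrp2 1419977_s_at with HGF/SF1 was 0.031, and Zeb1 1420243_at in antibody against HGF/SF1 was 0.023 (0.0025 after quantile normalization). With 1 array left out, Esrp2 1419977_s_at ran from -0.58 to 0.018 (antibody against untreated) and -0.30 to 0.30 (HGF/SF1 against untreated), Esrp2 1433683_at from -0.12 to 0.22 (HGF/SF1 against untreated), Snai2 from -0.33 to 0.11 (antibody against HGF/SF1) and -0.056 to 0.39 (antibody against untreated), Vim 1450641_at from -0.013 to 0.10 (antibody against HGF/SF1), Zeb1 1420243_at from -0.084 to 0.064 (antibody against HGF/SF1), -0.25 to 0.086 (antibody against untreated) and -0.25 to 0.087 (HGF/SF1 against untreated), and Zeb2 from -0.62 to 0.36 (HGF/SF1 against untreated). The cause was not tested. Over the block, both rescalings and each array left out, 396 values of single probe sets, 366 kept direction and call, 18 reversed, 8 gained and 4 lost the call. The other alternatives, whole experiments left out among them, are not in this tally. Dim signals limit Twist1 and Zeb1 1420243_at, the 2 of 11 below the lower quartile of brightness (3.97).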
